A study of Mus musculus with 5 samples.

Results

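The proteins of the neuroendocrine secretory granule and the enzymes that mature its hormones were followed in the fetal colon of HNF4 null and control mice. HNF4 is a nuclear receptor of the gut epithelium. The genes were chosen by name, with no threshold on a measured value, but with earlier results of these data known. The set comprised 10 genes: the granin family (Chga, Chgb, Scg2, Scg3 and Scg5), prohormone processing (Pcsk1, Pcsk1n, Pcsk2 and Cpe) and the serotonin-synthesising enzyme gene Tph1. The platform annotation paired 9 of these genes with 10 probe sets that carried a single symbol, out of 22626 probe sets tested. Cpe had 2 probe sets and the other genes 1 each, while Pcsk2 had none under this rule and was not analysed here. The HNF4 null group comprised 3 embryos (null_59, null_60 and null_426) of genotype HNF4LoxP/LoxP FoxA3Cre. The control group comprised 2 embryos (CONTROL_406 and CONTROL_421) of genotype HNF4LoxP/+ FoxA3Cre, so that controls also carried the Cre transgene and 1 floxed allele. All were fetal colons at E18.5 with 1 array per embryo, and litters were not stated. The transgene is named for Foxa3, a gene of the gut endoderm, and the cells in which it acts were not described in the labels.

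Enteroendocrine cells are scattered hormone-secreting cells of the gut epithelium. They pack peptide hormones and serotonin into dense-core granules, whose matrix is built by granins, and inside the granule prohormone convertases cut hormone precursors at paired basic residues before a carboxypeptidase trims the ends. Many of the same genes are used by enteric neurons, which arise from the neural crest and not from the endoderm. In RNA of whole colon, fewer cells of a type and less RNA per cell cannot be told apart, nor can the endocrine and neuronal share of a transcript.

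None of the 10 probe sets differed between HNF4 null and control colons at the threshold of limma, an adjusted p under 0.05 over all probe sets, against 0.124% of all probe sets. Their adjusted p lay between 0.672 and 0.983. At an unadjusted p under 0.05, 1 of the 10 was lower in null colons (Pcsk1n) and 0 were higher, against 4.33% and 2.82% of all probe sets. The log2 difference, null minus control, was below 0 for 6 probe sets, against 47.1% of all probe sets, and above 0 for 4, with a median of -0.13 against 0.02 over all probe sets. The 95% intervals lay between -0.92 and 0.92 on the log2 scale, and 9 of the 10 intervals spanned 0. Fold changes here are on the log2(intensity + 16) scale, which understates changes of low intensities. No interval reached 2-fold on that scale. A 2-fold change of intensity is less than 2-fold there and could lie inside an interval. The intensities of 7 of the 10 probe sets averaged below the median probe set. No detection calls were used here, so a low intensity may hold background signal.

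**Figure D1:**
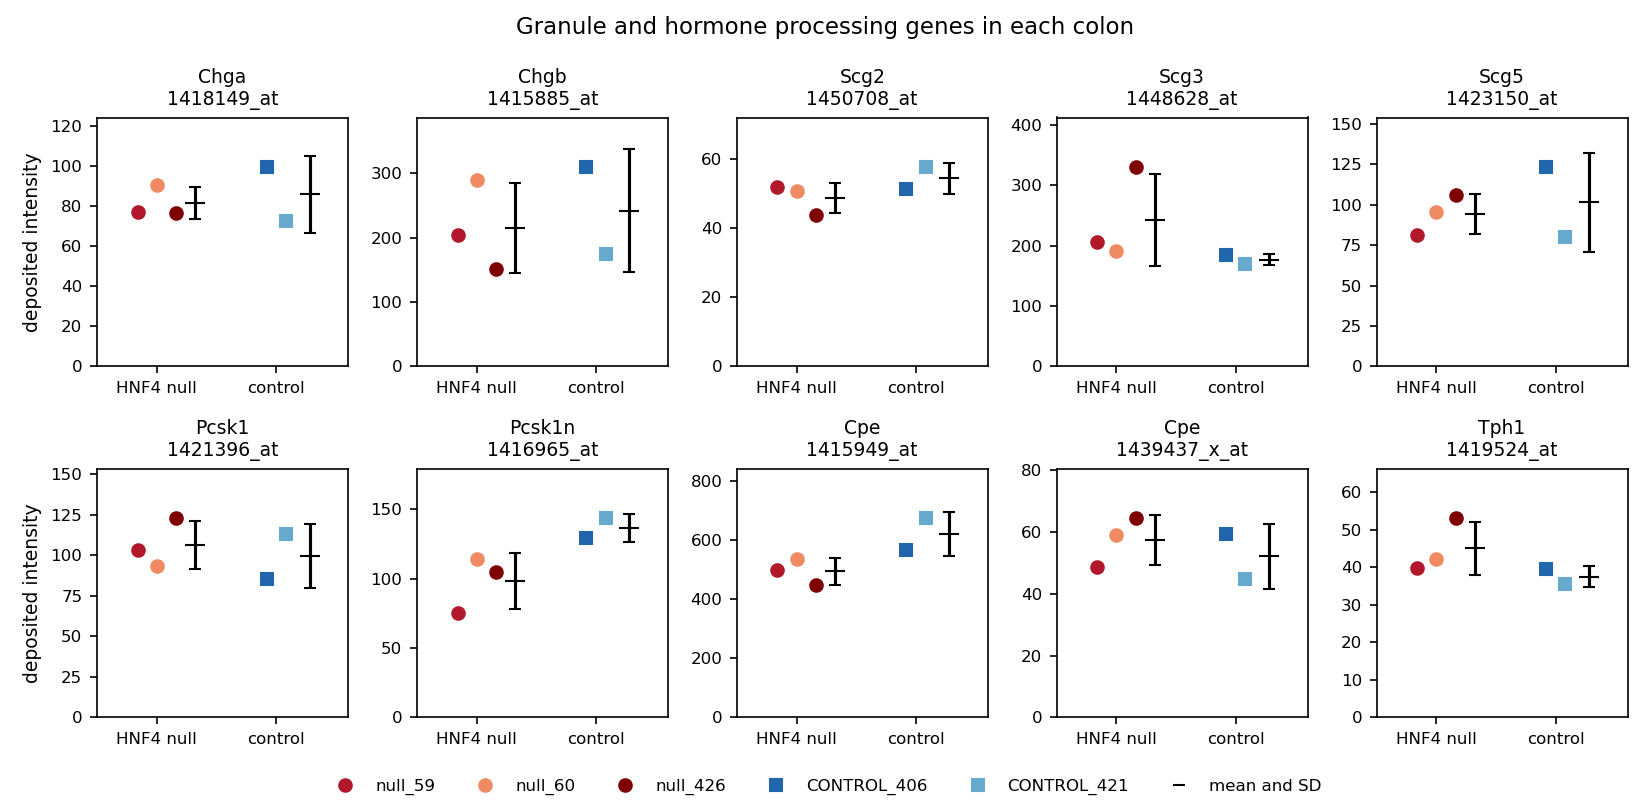
Deposited intensity (linear, arbitrary units, each axis from 0) of the 10 probe sets in 3 HNF4 null colons (circles) and 2 control colons (squares), with the mean and SD of each group in black. The groups overlap in 6 panels. In Pcsk1n and the brighter Cpe probe set the 3 null colons lie below both controls, and in Scg3 and Tph1 above them.

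Median intensities over all probe sets were 129.9 to 135.2 in null arrays, against 123.7 and 131.6 in control arrays. Gapdh is read near both ends of its transcript as a check of RNA integrity. The 3'/5' quotient was 0.794 to 0.895 in null arrays, against 0.767 in CONTROL_406 and 1.47 in CONTROL_421, which stood apart. The same quotient of actin was 1.49, 1.83 and 1.55 in null_59, null_60 and null_426, against 1.44 in CONTROL_406 and 1.76 in CONTROL_421, so that null_60 was highest and CONTROL_421 lay within the range of the null arrays. Of the 4 probe sets of Hnf4a, which encodes HNF4 alpha, 2 read lower and 2 higher on average in null colons. The log2 difference was -0.35 for 1427001_s_at, 0.14 for 1421983_s_at and 0.19 for 1450447_at, each with an unadjusted p above 0.05. The fourth, 1427000_at, read 344, 348 and 358 in null and 640 and 442 in control colons (log2 difference -0.55, unadjusted p = 0.0153, adjusted p = 0.603). Where the loxP sites lie is not stated in the labels. Hoxb13, a gene of the hindgut and 1 of 5 measured genes on a list that defines the colon, read 361, 341 and 179 in null and 516 and 465 in control colons. The 5 genes summed to 667 to 864 in null and 1054 to 1095 in control colons, with a median log2 difference of -0.29. By limma 0 of the 5 passed, against 0.137% of all genes by their brightest probe sets, and 2 were lower with an unadjusted p under 0.05 (Hoxb13 and Hoxa13), against 4.24% of all genes. The part of these levels in the results was not tested.

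Chga encodes chromogranin A, an acidic matrix protein of the granule and the usual marker of enteroendocrine cells. Its intensities were 77.0, 90.5 and 76.5 in null_59, null_60 and null_426, against 99.2 and 72.3 in CONTROL_406 and CONTROL_421. The highest and the lowest deposited value were both those of control colons, and all null values lay between them. After normalisation null_59 and null_426 lay below both controls. The log2 difference was -0.13 ± 0.18 (SE, n = 3 and 2, 95% interval -0.53 to 0.27, adjusted p = 0.888 by limma).

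Chgb encodes chromogranin B, the second acidic granin of the matrix. It read 204, 289.7 and 151 in null colons, against 309 and 174 in controls. CONTROL_406 and null_60 were high, and null_426 and CONTROL_421 were low, so that embryos of both genotypes were found at either end. Intensity averaged 215 ± 69.9 (SD, n = 3) across null colons and 242 ± 95.5 (SD, n = 2) across controls, with a log2 difference of -0.17 ± 0.28 (SE, adjusted p = 0.905). Its 95% interval ran from -0.80 to 0.46 on the log2 scale.

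Scg2 encodes secretogranin II, the precursor of the neuropeptide secretoneurin. It read 51.8, 50.8 and 43.8 in null colons, against 51.3 and 57.6 in controls. The groups overlapped, since null_59 read above CONTROL_406. Null minus control, the log2 difference was -0.20 ± 0.18 (SE, 95% interval -0.60 to 0.20, adjusted p = 0.823).

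Scg3 encodes secretogranin III, which binds chromogranin A and anchors it to the granule membrane. It read 206, 191.5 and 330.0 in null colons, against 184 and 170.1 in controls. All null colons were above both controls, as in 12.0% of all probe sets, and null_426 stood far above the other null colons. The log2 difference was 0.38 ± 0.24 (SE, 95% interval -0.16 to 0.92, adjusted p = 0.778), and without null_426 it was 0.14.

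Scg5 encodes 7B2, a chaperone and inhibitor of the convertase PC2. It read 81.3, 95.4 and 106 in null colons, against 123 and 80.0 in controls. As with Chga, the controls bracketed the null colons by deposited values only, since after normalisation null_59 was lowest. On the log2 scale the difference was -0.13 ± 0.19 (SE, 95% interval -0.56 to 0.30, adjusted p = 0.893).

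Several granin and convertase genes are known to carry cyclic AMP response elements in their promoters. To show where that element lies in the members measured here, RefSeq promoter windows of GRCm38.p6 (250 bases before to 50 after the annotated start) were searched on both strands for its palindrome TGACGTCA. Windows were found for 9 of the 10 genes, Pcsk2 included. The palindrome was present in the windows of 3 of them (Chgb, Scg2 and Pcsk1), against 1.79% of 32851 windows of all genes. Chga held the variant TGACGTAA, which occurred in 0.499% of all windows and does not overlap a palindrome there. The 100 bases before the start of these 4 genes are given 5′ to 3′ on the gene's strand, with the element in capitals. They lie at chr12:102554841-102554940 for Chga (plus strand), chr2:132781542-132781641 for Chgb (plus strand), chr1:79440027-79440126 for Scg2 (minus strand) and chr13:75089757-75089856 for Pcsk1 (plus strand).
Chga: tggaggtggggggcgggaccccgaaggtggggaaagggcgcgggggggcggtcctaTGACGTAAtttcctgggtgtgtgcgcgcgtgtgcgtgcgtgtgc
Chgb: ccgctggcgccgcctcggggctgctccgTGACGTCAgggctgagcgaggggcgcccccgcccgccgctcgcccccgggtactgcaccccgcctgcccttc
Scg2: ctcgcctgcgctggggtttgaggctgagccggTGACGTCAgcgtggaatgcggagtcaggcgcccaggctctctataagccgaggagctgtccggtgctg
Pcsk1: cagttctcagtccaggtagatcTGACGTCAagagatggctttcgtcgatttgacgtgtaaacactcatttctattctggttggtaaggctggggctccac
The first base of the palindrome lay 72 bases before the start in Chgb, 68 in Scg2 and 78 in Pcsk1, and that of the variant lay 44 bases before the start in Chga. A string bound by HNF4 proteins, CAAAGTCCA, was in the windows of 0 of the 9 genes and in 0.475% of all windows. These matches describe letters in a window and were not tested for binding. The 4 genes with the element did not share an order of the arrays by deposited values: CONTROL_406 was highest in Chga and Chgb, CONTROL_421 in Scg2 and null_426 in Pcsk1.

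Pcsk1 encodes the convertase PC1/3, which cuts many gut prohormones, among them proglucagon. It read 102.9, 93.6 and 123 in null colons, against 85.3 and 113 in controls. The groups overlapped, with CONTROL_406 lowest and null_426 highest. By limma, the log2 difference was 0.04 ± 0.19 (SE, 95% interval -0.39 to 0.47, adjusted p = 0.971).

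Pcsk1n encodes proSAAS, a granin-like inhibitor of PC1/3. It read 75.3, 114 and 105 in null colons, against 129 and 143 in controls. All null colons were below both controls, as in 11.6% of all probe sets. The mean intensity was 98.1 ± 20.3 (SD, n = 3) across null colons and 136 ± 9.85 (SD, n = 2) across controls, 1.39-fold lower in null colons by the fit. The log2 difference was -0.48 ± 0.19 (SE, 95% interval -0.92 to -0.04, unadjusted p = 0.0348, adjusted p = 0.672). Its unadjusted p was 0.146 without null_59, 0.163 without CONTROL_421 and 0.0549 without normalisation.

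Cpe encodes carboxypeptidase E, which removes the basic residues left after convertase cuts. By the brighter probe set, 1415949_at, it read 501, 539 and 448 in null colons, against 569 and 675 in controls. All null colons were below both controls. The log2 difference was -0.27 ± 0.17 (SE, 95% interval -0.65 to 0.11, adjusted p = 0.775). By 1439437_x_at it read 48.5, 59.1 and 64.4 in null colons, against 59.4 and 44.7 in controls, where the groups overlapped and the log2 difference was 0.02 ± 0.17 (SE, adjusted p = 0.983). The signs of both Cpe probe sets thus differed, and the suffix of the dimmer one marks probes that may match other transcripts.

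Tph1 encodes the tryptophan hydroxylase that limits serotonin synthesis in enterochromaffin cells. It read 39.9, 42.2 and 53.1 in null colons, against 39.6 and 35.5 in controls. All null colons were above both controls, although null_59 exceeded CONTROL_406 by little. The fitted log2 difference was 0.09 ± 0.16 (SE, 95% interval -0.27 to 0.45, adjusted p = 0.915). Tph1 is also expressed by mast cells. On the mast cell list 8 of 10 genes had log2 differences above 0 and 2 below 0. Of all probe sets 47.1% were below 0. The median of the list was 0.23, against 0.02 over all genes. The summed intensity of the 10 genes was 1428 to 1858 in null and 1272 to 1281 in control colons. Among its 4 brightest genes, the histidine decarboxylase gene Hdc read 584 ± 74.1 (SD, n = 3) against 446 ± 44.7 (SD, n = 2), a log2 difference of 0.41. The chymase gene Mcpt4 read 271 ± 82.6 (SD, n = 3) against 188.5 ± 29.6 (SD, n = 2), a log2 difference of 0.47, which was 0.22 without null_426 and 0.29 without CONTROL_406. Neither gene passed the threshold. With an unadjusted p under 0.05, 1 of these 10 genes was higher (Fcer1a) and 0 were lower, against 2.60% and 4.24% of all genes. None of the 10 mast cell genes was at 0 in any array. At most 58 of 22626 probe sets read below 0 in an array, so values above 0 do not show expression. The part of mast cells in the Tph1 values was not tested.

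The differences of the 10 probe sets were set beside those of the other genes of serotonin handling. Of 8 measured genes by their brightest probe sets, 0 passed the threshold of limma over all probe sets, against 0.137% of all genes. At an unadjusted p under 0.05, 3 were lower in null colons and 0 higher, against 4.24% and 2.60% of all genes. The 3 were Ddc, Maoa and Spr, and the count was 2 without null_59, 2 without null_426 and 5 without null_60. The unadjusted p of Spr was 0.0463 by limma. It was 0.158 without null_59, 0.111 without null_426 and 0.0616 without normalisation. The median log2 difference of the 8 was -0.39, against 0.02 over all genes. This list was chosen with earlier results of these data known, so the shares are not an independent comparison.

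Ddc, the decarboxylase that makes serotonin from the product of Tph1, read 146, 173 and 129 in null colons, against 278 and 205 in controls. All null colons were below both controls, with a log2 difference of -0.66 ± 0.19 (SE, 95% interval -1.09 to -0.22, adjusted p = 0.533). Maoa, the mitochondrial oxidase that breaks serotonin down, read 479, 420.4 and 349 in null colons, against 639 and 815 in controls. Its log2 difference was -0.74 ± 0.20 (SE, 95% interval -1.18 to -0.30, adjusted p = 0.441). The groups did not overlap in either gene, and their unadjusted p was 0.00738 for Ddc and 0.00411 for Maoa. Without CONTROL_406 that of Ddc was 0.0724, while that of Maoa was at most 0.0436 with any 1 array left out.

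Enzymes that make or restore tetrahydrobiopterin, the cofactor of Tph1, had log2 differences below 0 in all 4 measured cases. These were -0.47 for Spr, -0.44 for Qdpr, -0.34 for Pts and -0.19 for Gch1, with adjusted p from 0.695 to 0.813 by limma. Of all probe sets 47.1% were below 0, and in Pts the groups overlapped. The vesicular monoamine transporter gene Slc18a1 (0.18) and the serotonin transporter gene Slc6a4 (0.12) differed the other way, and their groups overlapped. Summed over the 8 genes, intensities were 1604 to 1906 in null and 2354 to 2376 in control colons. The largest parts of the sum were Maoa, which averaged 416 in null and 727 in control colons, and Qdpr (440 and 607). Ddc and Maoa are also expressed outside enteroendocrine cells. On the list of gut epithelium markers, 10 genes summed to 12792 to 16689 in null and 16328 to 17129 in control colons. Their median log2 difference was -0.07. By limma 0 of them passed, against 0.137% of all genes. With an unadjusted p under 0.05, 2 were lower (Epcam and Vil1) and 0 higher, against 4.24% and 2.60% of all genes. The part of the epithelium in these values was not tested.

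**Figure D2:**
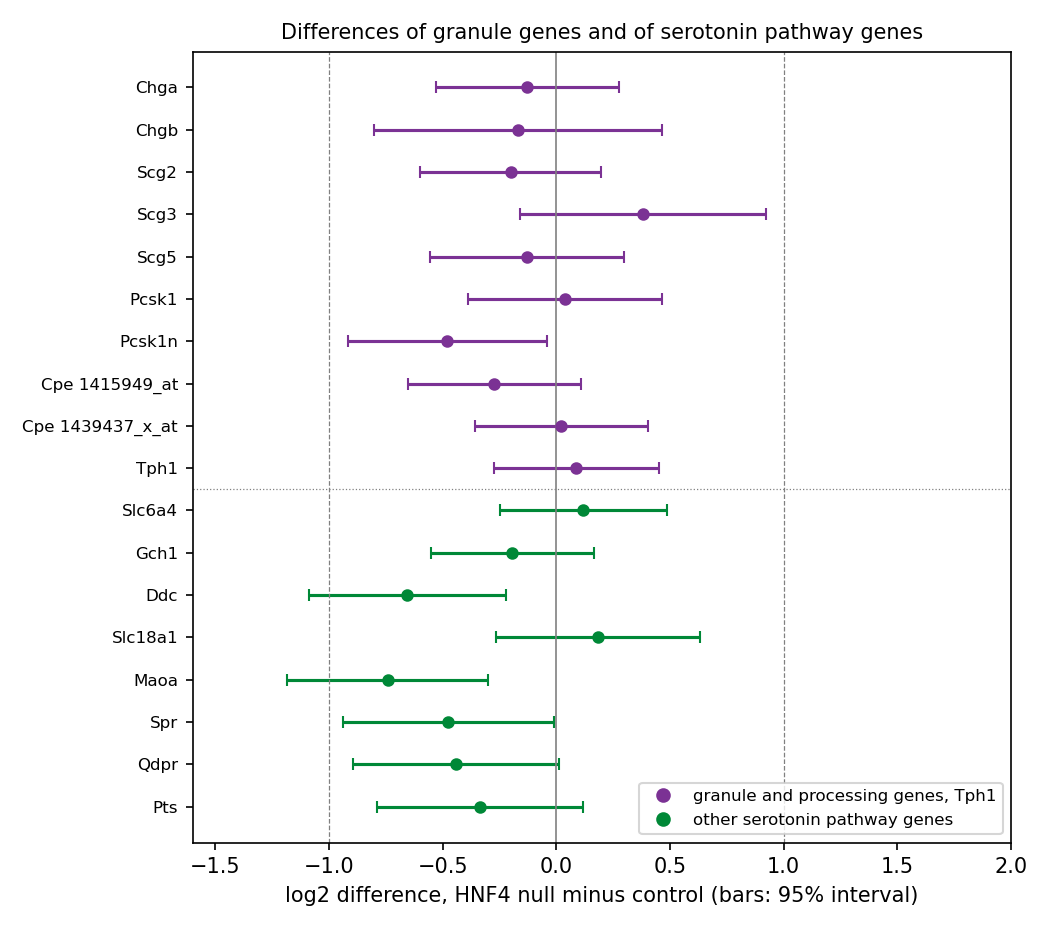
Log2 difference, HNF4 null minus control, with 95% intervals from limma, for the 10 probe sets of granule and processing genes and Tph1 (purple) and for 8 other serotonin pathway genes (green). Dashed lines mark 2-fold on the log2(intensity + 16) scale, which is more than 2-fold in intensity. Intervals of the purple group lie within the dashed lines, and those of Ddc and Maoa reach beyond the left one.

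Further genes of dense-core granules and peptide processing, 23 of them measured, were read by their brightest probe sets. Of these, 0 passed the threshold of limma in either direction, against 0.137% of all genes. At an unadjusted p under 0.05, 0 were lower and 0 higher, against 4.24% and 2.60% of all genes. The median log2 difference of the 23 was 0.04, and the range was -0.42 to 0.36. Of the 23, 9 were below 0 and 14 above, against 47.1% of all probe sets below 0. A dimmer probe set of the convertase gene Pcsk5, 1451406_a_at, had a log2 difference of 0.67 (unadjusted p = 0.00613, adjusted p = 0.504 by limma). The brightest Pcsk5 probe set had -0.01. Pam, the enzyme that amidates peptide hormones, read 259.9, 294 and 241 in null colons, against 356 and 294 in controls (log2 difference -0.28, adjusted p = 0.771). The convertase gene Furin of the general secretory pathway averaged 281 ± 12.0 (SD, n = 3) across null colons and 289 ± 3.09 (SD, n = 2) across controls. Cpd, a carboxypeptidase of the trans-Golgi network, had a log2 difference of 0.18 by its brightest probe set (adjusted p = 0.820). Its other probe sets ran from -0.35 (1455009_at) to 0.14 (1418019_at).

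The order of the arrays in Chgb was compared with that of gut hormone genes, whose products the granule holds. Of 14 measured hormone genes, 0 passed the threshold of limma, against 0.137% of all genes. At an unadjusted p under 0.05, 3 were lower in null colons and 0 higher, against 4.24% and 2.60% of all genes. These were the neurotensin gene Nts (log2 difference -1.01), the tachykinin gene Tac1 (-0.59) and the enkephalin gene Penk (-0.51), named after their values were seen. The unadjusted p of Tac1 was above 0.05 without any 1 array other than null_60, reaching 0.0774 without CONTROL_406. That of Penk was 0.104 without null_59, 0.0582 without null_426, 0.260 without CONTROL_406, where the log2 difference was -0.28, and 0.0555 without normalisation. Pyy, the peptide YY gene of L cells, read 1646, 1654 and 1144 in null colons, against 2123 and 1344 in controls. Gcg, the proglucagon gene, read 221, 259 and 172 in null colons, against 285 and 139.5 in controls. Insl5, an insulin-like peptide gene of colonic L cells, read 714, 672 and 438 in null colons, against 904 and 425.8 in controls. In Chgb and in these 3 genes, CONTROL_406 was the highest of the 5 arrays, null_59 and null_60 lay between, and null_426 and CONTROL_421 were the lowest. Nmu, the neuromedin U gene and also among the 4 brightest hormone genes, went the other way: it read 228, 231 and 315 in null colons, against 218 and 244.9 in controls, with null_426 and CONTROL_421 highest and CONTROL_406 lowest. Chgb and Pyy had the same order of all 5 deposited values, an order held by 1.35% of all probe sets, and Chga had the same order as Gcg, held by 1.88%. After normalisation the orders of both pairs differed, although CONTROL_406 stayed highest in Chgb, Pyy, Chga, Gcg and Insl5. The resemblance of Chgb and Chga to hormone genes was noticed in the data, and 5 arrays were too few for a correlation. Most other members did not share it. CONTROL_406 was highest in Scg5 but lowest in Pcsk1. Pcsk1n, the brighter Cpe probe set and Scg2 were highest in CONTROL_421. Scg3, Tph1 and the dimmer Cpe probe set were highest in null_426.

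**Figure D3:**
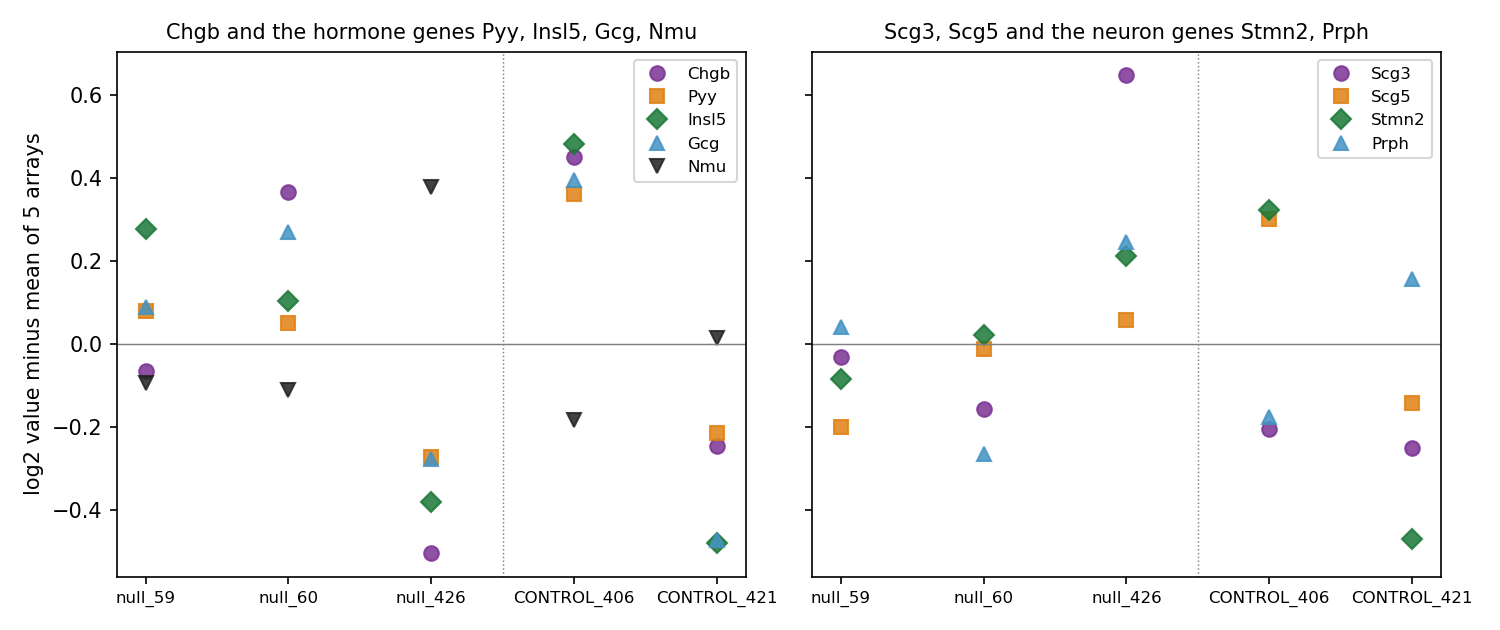
Normalised log2 value of each gene minus its mean over the 5 arrays, with the 3 HNF4 null arrays left of the 2 control arrays. On the left, Chgb, Pyy, Insl5 and Gcg are above 0 in CONTROL_406 and below 0 in null_426 and CONTROL_421, and Nmu has the opposite signs; on the right, Scg3 reaches 0.65 in null_426 and Scg5 and the neuron gene Stmn2 are highest in CONTROL_406, where the neuron gene Prph is below 0.

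The gap between both control embryos was larger than the difference between the groups in 7 of the 10 probe sets. The share of all probe sets with such a gap was not computed. A gap between single arrays varies more than a difference between group means. Without that share the count cannot be read as a result about these genes. In Chgb the normalised log2 value of CONTROL_406 exceeded that of CONTROL_421 by 0.70, in Scg5 by 0.44 and in Chga by 0.29, while in Pcsk1 the same difference was -0.43. In total, 4 of the 10 probe sets had every null array on one side of both control arrays, against 23.7% of all probe sets. CONTROL_421, whose quotient stood apart by Gapdh but not by actin, gave the lowest deposited value in 5 of the 10 probe sets. Its median intensity over all probe sets was also the lowest of the 5 arrays (123.7). After normalisation CONTROL_421 stayed lowest in Scg3, but not in Chga, Scg5, the dimmer Cpe probe set or Tph1. The share of all probe sets lowest in CONTROL_421 was not computed, so that count cannot be read as a result about these genes either. Without CONTROL_406, the signs of Chga (0.0163), Chgb (0.18), Scg5 (0.0887) and Pcsk1 (-0.17) turned. The part of RNA quality in these gaps was not tested.

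Lists of enteric neuron, enteroendocrine transcription factor, glia, pancreas (islet and acinar) and chromaffin genes were read by their brightest probe sets. Of 19 measured enteric neuron genes 0 passed the threshold of limma, against 0.137% of all genes. At an unadjusted p under 0.05, 0 were lower and 0 higher, against 4.24% and 2.60% of all genes. Their median log2 difference was 0.02. Summed intensities were 2745 to 3519 in null and 2913 to 3479 in control colons. Stmn2, a tubulin-binding protein gene of neurons, read 242, 269 and 296 in null colons, against 338 and 177 in controls, and its 5 deposited values had the same order as those of Scg5 (0.831% of all probe sets), while after normalisation null_59 and CONTROL_421 changed places in Scg5. Prph, the peripherin gene and the brightest of the neuron list, had another order by its brightest probe set: it read 375, 314 and 423 in null colons, against 337 and 412 in controls, with null_426 and CONTROL_421 highest. The other lists also had 0 genes with an adjusted p under 0.05 by limma, against 0.137% of all genes. With an unadjusted p under 0.05, 2 pancreas genes were lower (Ppy and Cela1) and 0 higher, against 4.24% and 2.60% of all genes. On the transcription factor, chromaffin and glia lists 0 genes were lower and 0 higher, against the same shares. The 14 enteroendocrine transcription factors had a median of 0.15 and sums of 2049 to 2907 in null and 2042 to 2188 in control colons. The 5 genes of adrenal chromaffin cells had a median of 0.11 and sums of 1197 to 1590 against 1168 to 1344. The 9 pancreas genes had a median of -0.05 and sums of 2050.0 to 2823 against 2419.6 to 2643, the 5 glia genes a median of 0.09 and sums of 1069 to 1412 against 1174 to 1296. No gene of these lists was at 0 in any array, which, as with the mast cell genes, does not show expression. The part of these lists in the granule gene values was not tested.

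**Figure D4:**
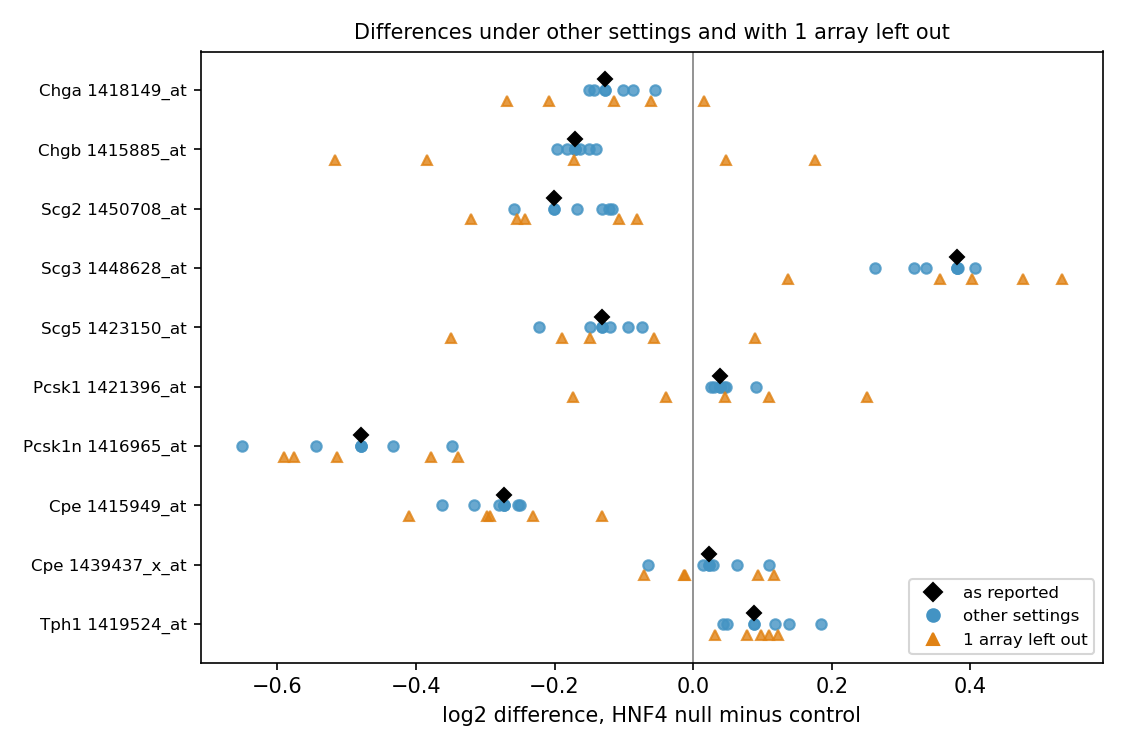
Log2 difference, HNF4 null minus control, of each of the 10 probe sets as reported (black diamonds), under other settings of scaling, pseudocount, filter and variance prior (blue circles) and with 1 array left out (orange triangles). Pcsk1n, the brighter Cpe probe set and Scg2 stay below 0 and Scg3 and Tph1 above 0, while the triangles of the other probe sets lie on both sides.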

How the data were processed

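The authors deposited 1 linear intensity per probe set and array, and the step that summarised probes, the background subtraction and the scaling are not given in the sources used here. RNA was column-purified (Qiagen RNeasy) and biotin-labelled by an Affymetrix procedure, per the labels' protocols. The table held 22690 probe sets; 64 control probe sets were left out. A platform annotation of 2016 gave 20380 of the rest 1 symbol and 691 several; 1555 were unnamed here. Of the first, 20351 matched RefSeq genes (GRCm38.p6) by gene ID, with 0 symbols changed.

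Values below 0 were set to 0, log2(intensity + 16) was taken and arrays were quantile normalised. HNF4 null was tested against control with limma 3.58.1 in R 4.3.3 (lmFit, eBayes, two-sided, no covariate, no filter), adjusted by Benjamini and Hochberg over 22626 probe sets. The p-values measure the spread between these embryos, and the number of arrays limits the precision. Scripts were tested on simulated data. Genes in lists were represented by the probe set with the highest mean; all member probe sets, the genes of the granule and serotonin lists, and the 4 brightest of each other list could be named. The members and the 11 lists were chosen with earlier results of these data known. List genes named beside counts at an unadjusted p were chosen after their values were seen. Hoxb13, Hnf4a and the comparison of array orders were added to describe the samples.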

Additional observations from a re-analysis of the deposited data

How the results depend on the processing

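Under the 13 alternatives (deposited values unscaled, centring on medians, a pseudocount of 1 or 64, a filter on dim probe sets, 2 variance priors with an intensity trend, array weights and each array left out), 0 member probe sets and 0 list genes passed limma's threshold. The smallest adjusted p of a member was 0.299, for Pcsk1n with array weights. The filter kept 3 of the 10. Of 123 values of members under alternatives, 113 kept their sign and 10 did not, and 5 of the 10 probe sets kept theirs throughout. The sign of the dimmer Cpe probe set turned with array weights (-0.0649). With 1 array left out, the log2 difference ranged from -0.269 to 0.0163 for Chga, -0.52 to 0.18 for Chgb, -0.349 to 0.0887 for Scg5, -0.17 to 0.25 for Pcsk1 and -0.0707 to 0.117 for this Cpe probe set. Over all probe sets, the count past the threshold, 28 as reported, was 17 under the filter, 14 with a pseudocount of 1, 45 with array weights and 8 (without null_60) to 104 (without CONTROL_406) with 1 array left out. A lone control array was taken to vary as the null arrays do. No paired analysis was possible because the replicate labels of both groups share no number. Whether the dimmest probe sets of the members (Tph1, Scg2 and this Cpe probe set) were above background was not assessed.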
